A study of Mus musculus with 6 samples.

Results

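The Wnt genes described here are 62 of the 43346 Ensembl mouse genes in the deposited tables. They were chosen by symbol alone: the Wnt, Fzd, Dkk, Sfrp and Rspo families, with Lrp5, Lrp6, Ror1, Ror2, Ryk, Lgr4, Lgr5, Wif1, Frzb, Notum, Ctnnb1, Apc, Axin1, Axin2, Dvl1, Dvl2, Dvl3, Lef1, Tcf7, Tcf7l1 and Tcf7l2. By role they are 19 Wnt ligands, 10 Frizzled receptors, 5 coreceptors or other Wnt receptors, 6 R-spondins or R-spondin receptors, 11 secreted antagonists, 7 cytoplasmic transducers and 4 TCF/LEF factors. RNA-seq was done on cultured mouse retinal ganglion cells (RGCs), the neurons whose axons form the optic nerve, in 3 groups of 2 libraries. The control group received a control AAV (the study's culture control carried GFP), the Sox11 group an AAV for the transcription factor Sox11, and the Sox11 K91A group an AAV for Sox11 in which a lysine that can carry the small protein SUMO was changed to alanine. The vectors had an AAV2 capsid, and the promoter that drives the transgene is not given in the sources used here. In all groups the cells were purified by immunopanning for CD90.1, a surface protein of RGCs, grown with forskolin, BDNF and CNTF, given AAV 4 h after plating and taken for RNA at 72 h. The protocols give both E18 and P2 as the age of the cells and the table names give P0, so the age is uncertain. No genotype is given for the libraries, and the study's mice were C57BL/6 of both sexes. The protocol speaks of 3 RNA samples in duplicate, and whether the 2 libraries of a group came from separate cultures is not stated, so p-values measure only the spread between these libraries, which may be technical.

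Wnts are secreted lipid-modified proteins that bind Frizzled receptors together with the coreceptors Lrp5 or Lrp6, or with Ror or Ryk receptors. In the canonical branch, Dishevelled proteins (Dvl) relay the signal, a destruction complex built on Axin and Apc stops degrading beta-catenin (Ctnnb1), and beta-catenin acts with TCF/LEF factors on target genes such as Axin2, itself an inhibitor of the pathway. R-spondins, acting through Lgr receptors, raise the amount of Frizzled on the cell surface, while Dkk, Sfrp and Wif1 proteins are secreted antagonists. In the developing visual system Wnts and their receptors are known for roles at the ciliary margin of the retina and in the guidance of axons, Ryk and Wnt3 in the mapping of RGC axons in the tectum, and Fzd3 in axon guidance through planar cell polarity.

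Library totals lay between 27521981 and 37061718 expected counts. Sox11 counts were 6544 and 12786 in the control libraries, 252161 and 483694 in the Sox11 libraries, and 385765 and 204868 in the Sox11 K91A libraries, high in all 4 libraries labelled with a Sox11 vector, though counts do not tell Sox11 from Sox11 K91A. In a principal component plot the first axis (59% of the variance) split control from the rest. The second axis (19.8%) set control replicate 2 and Sox11 replicate 2 apart, and these 2 libraries also had the lowest counts of Xist, a noncoding RNA of the inactive X chromosome (3697 and 8413, against 11191 to 16303 in the other libraries). Summed RGC markers were 11781 and 11641 CPM in control, 8649 and 6345 with Sox11, and 7431 and 8982 with Sox11 K91A, where CPM is the count scaled to library size after TMM normalization. By limma-voom 3 of the 11 RGC markers fell with Sox11, beside 10.2% of all genes tested, and 0 rose. Nefl made up most of the control sum, at 7086 and 6345 CPM, and was at 4104 and 2188 CPM with Sox11. Thy1 was at 725 and 689 CPM in control and 259 and 46.3 CPM with Sox11. Slc17a6 and Rbpms also lay below both control libraries with Sox11, Ebf1 lay above them, and the other RGC markers overlapped control. The Müller glia and astrocyte list summed to 235 and 300 CPM in control and 476 to 502 in the other libraries, mostly Glul and Vim, with Gfap at 0 in every library and Aqp4 at no more than 0.248 CPM. The amacrine list summed to 275 and 164, 148 and 55.3, and 125 and 140 CPM in the same order. Summed markers of each remaining cell type stayed at or below 129 CPM. The part of these markers in the results below was not tested, and in bulk samples fewer cells of a type and less RNA per cell cannot be told apart.

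In control RGCs the Wnt genes with the highest levels were intracellular transducers and a single secreted protein. On the TPM scale, which corrects for transcript length, Dkk3, a divergent Dkk family member, stood at 312 and 213 and Ctnnb1 at 230 and 176 in the control libraries. The Dishevelled genes Dvl1 (121 and 88.9 TPM) and Dvl3 (135 and 41.2 TPM) and Apc (121 and 41.5 TPM) followed, and the spread between the control libraries was too wide to order these 3. Among the receptors Ryk was at 19.4 and 24.0 TPM, Lgr4 at 14.9 and 12, Fzd1 at 14.6 and 10.0, and Fzd9 at 10.2 and 10.5 TPM. Fzd3 was at 17.3 and 3.34 TPM in the same libraries, so its place among the Frizzleds differed between them.

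The ligands were low. Wnt2b had the highest control mean of the Wnts, 4.83 ± 4.94 TPM (SD, n = 2), which does not separate it from Wnt3 at 3.01 ± 0.431 TPM (SD, n = 2). Of the 62 genes, 41 passed the filter on low counts and 21 did not. The 21 were Wnt1, Wnt2, Wnt3a, Wnt6, Wnt7a, Wnt7b, Wnt8a, Wnt8b, Wnt9b, Wnt10a, Wnt10b, Wnt16, Fzd2, Fzd10, Ror1, Rspo1, Rspo4, Dkk1, Dkk4, Sfrp5 and Notum. Wnt8b and Dkk4 had 0 counts in all 6 libraries. All 7 transducers and all 4 TCF/LEF factors passed, against 7 of the 19 Wnts and 8 of the 10 Frizzleds. Of the 5 coreceptors and other receptors 4 passed, as did 4 of the 6 R-spondins and R-spondin receptors and 7 of the 11 antagonists. Although they passed, the TCF/LEF factors were all low, between 0.03 and 0.53 TPM over the 6 libraries. Lef1 passed through libraries with a Sox11 vector, in which it is higher, and Tcf7 through libraries other than those with Sox11 K91A. Passing is therefore not a sign of expression in every group.

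**Figure D1:**
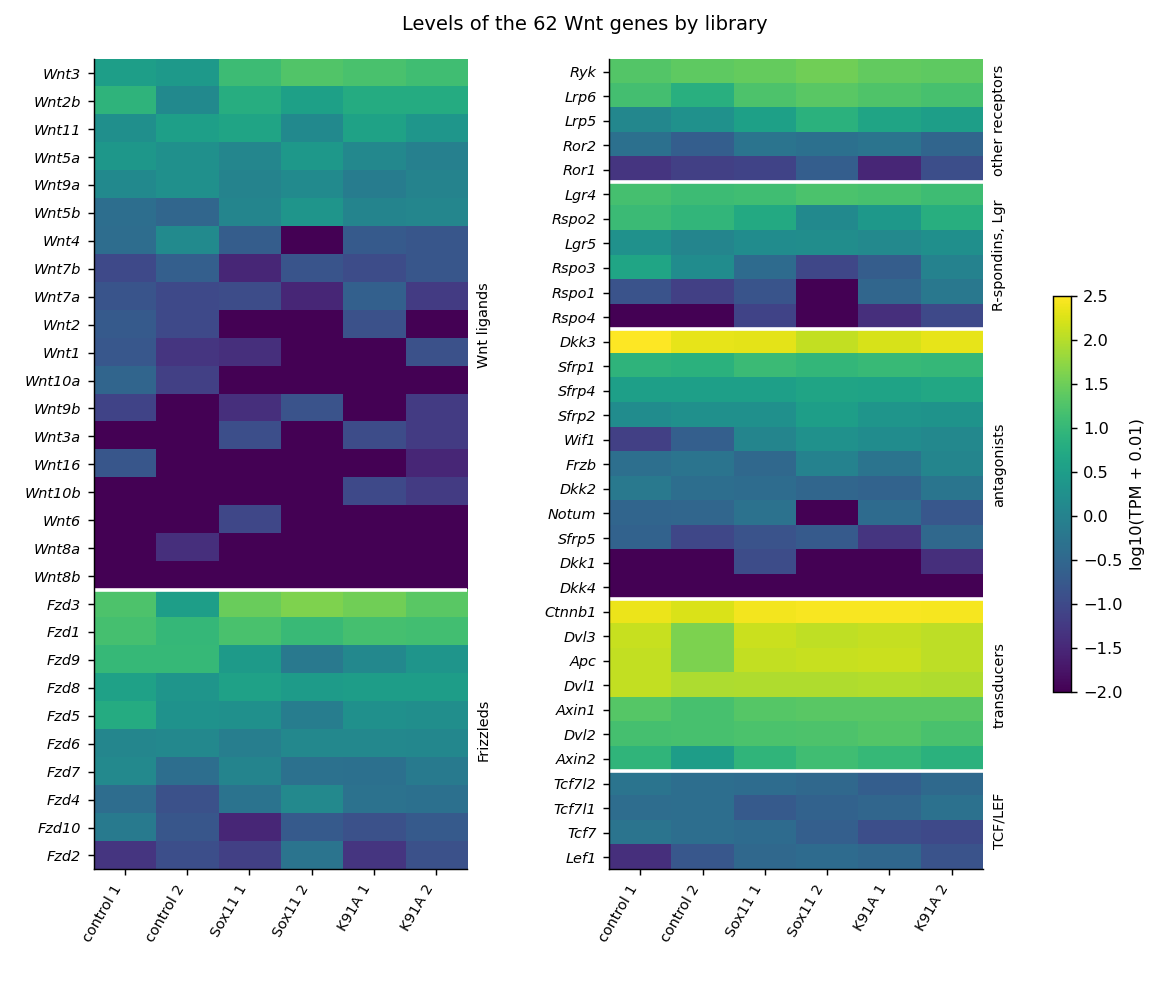
Levels of the 62 Wnt genes in the 6 libraries as log10(TPM + 0.01), with 1 row per gene, 1 column per library, genes grouped by role and, within a role, ordered by mean TPM. Dkk3 and Ctnnb1 were the highest rows, most Wnt ligands were at or near 0, and the rows of Wnt3 (higher) and Fzd9 (lower) changed between the control columns and the other 4.

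With Sox11, 7 Wnt genes rose and 1 fell against control. Wnt3, Wnt5b, Fzd3, Lrp5, Lrp6, Wif1 and Axin2 were higher and Fzd9 was lower (limma-voom, adjusted p under 0.05 and a fold change above 1.2, the study's thresholds). The 7 were 17.1% of the 41 tested genes, beside 9.96% of all 15747 genes tested, and the 1 that fell was 2.44%, beside 10.2% of all genes. The 2 Sox11 libraries lay above both control libraries for 13 of the 41 genes (31.7%) and below both for 11 (26.8%), beside 30.9% and 30.6% of all genes, so separation of the groups was about as frequent here as elsewhere. The median log2 fold change of the 41 genes was 0.10, beside 0.01 over all genes, and the median absolute log2 fold change was 0.67, beside 0.46. These shares and medians were not matched for transcript length, which is described below. Without Sox11 replicate 2, 0 of the 41 genes passed in either direction by limma-voom, as did 0 of all 15747 genes, of which 3349 had an unadjusted p under 0.05. The count of genes that rose was 1 (Wnt3) without control replicate 2 and also without either Sox11 K91A library, which enters this comparison through the shared estimate of the spread. The count that fell was 2 without control replicate 1 and 3 without control replicate 2 or Sox11 replicate 1.

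With Sox11 K91A, Wnt3 and Wif1 rose and Fzd9 fell. These are 4.88% of the 41 genes higher, beside 5.81% of all genes, and 2.44% lower, beside 4.81%. Both Sox11 K91A libraries lay above both control libraries for 14 genes (34.1%) and below both for 12 (29.3%), beside 31.2% and 30.7% of all genes. The median log2 fold change of the 41 was 0.12 and their median absolute log2 fold change 0.65, beside 0.02 and 0.39 over all genes. Both comparisons use the same control libraries, so their values are given side by side below and no agreement between them is read. By limma-voom 0 genes passed without control replicate 2 or without Sox11 K91A replicate 1, among all 15747 genes too, of which 4703 and 1915 then had an unadjusted p under 0.05. Without control replicate 1, 6 Wnt genes passed as higher, and without Sox11 K91A replicate 2, 1 did and none passed as lower.

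**Figure D2:**
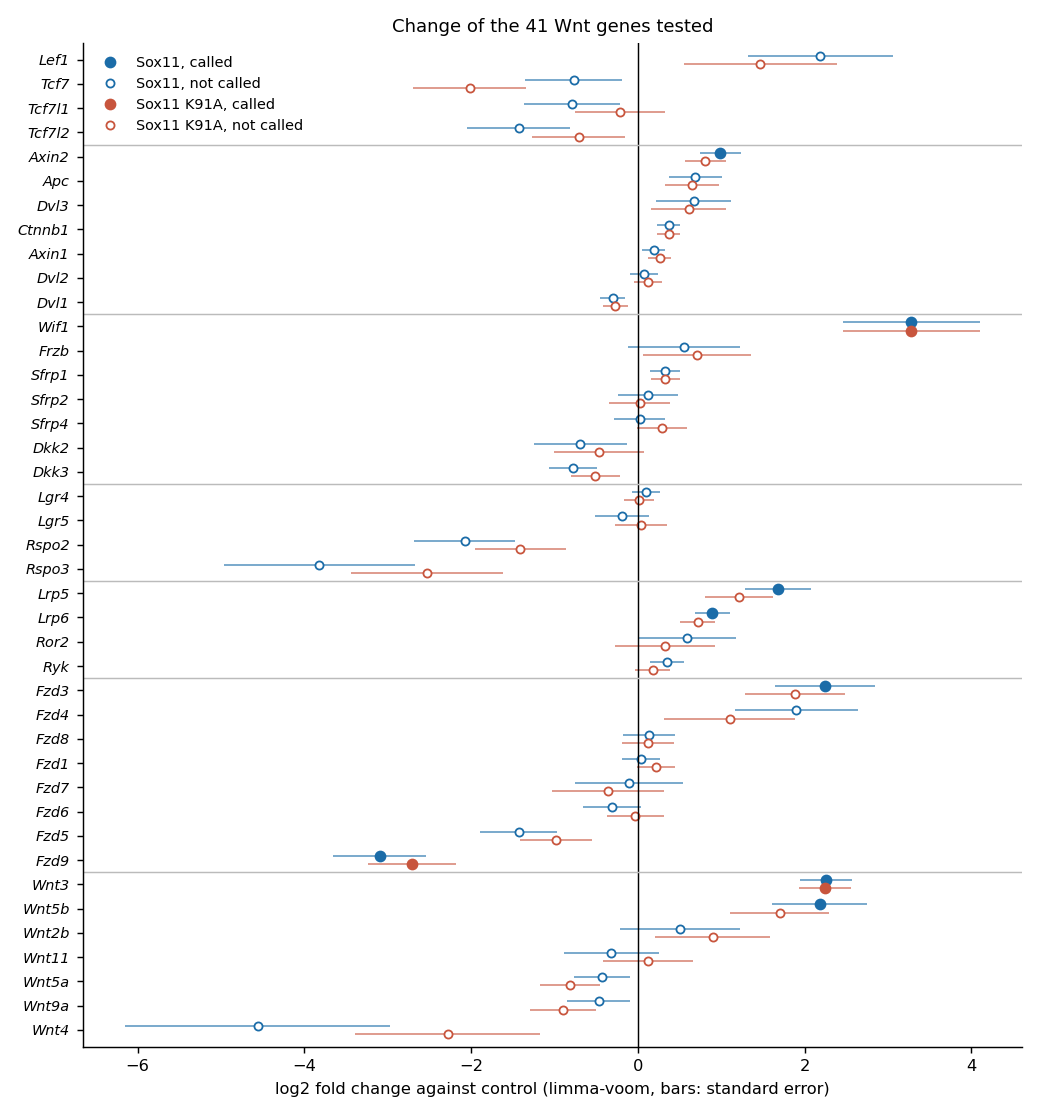
Log2 fold change against control for the 41 Wnt genes tested, by role, for Sox11 and Sox11 K91A. Points are limma-voom estimates from 2 libraries per group, bars are standard errors, filled points passed the threshold and open points did not. Wnt3 and Wif1 lay to the right and Fzd9 to the left of 0 with filled points for both vectors, while Rspo3 and Wnt4 had estimates as large with wider errors and open points.

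Wnt3, a ligand of the canonical branch, is at chr11:103774150-103817957 on the plus strand (GRCm38). Its level was 4.83 and 4.31 CPM in the control libraries, 17.7 and 26.3 CPM with Sox11, and 23.8 and 19.3 CPM with Sox11 K91A. The 4 libraries with either vector were all above control, and the 2 vectors overlapped. The log2 fold change was 2.26 ± 0.31 (SE, n = 2 per group, limma-voom adjusted p = 0.012) with Sox11 and 2.24 ± 0.31 (SE, adjusted p = 0.017) with Sox11 K91A, a rise of 4.79-fold and 4.72-fold. On the TPM scale this took Wnt3 from a mean of 3.01 to 15.5 and 14.7, above every other Wnt in each of these 4 libraries. The Sox11 call was lost without Sox11 replicate 2 (log2 fold change 1.96), and the Sox11 K91A call without control replicate 2 (2.14) or Sox11 K91A replicate 1 (2.08).

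Wnt5b, a ligand known mainly for the noncanonical branch (chr6:119432531-119544347, minus strand), was at 0.394 and 0.337 CPM in control, 1.2 and 2.26 CPM with Sox11, and 1.15 and 1.27 CPM with Sox11 K91A. Its groups did not overlap control for either vector, at levels near 1 CPM. Sox11 gave a log2 fold change of 2.18 ± 0.57 (SE, limma-voom adjusted p = 0.040) and Sox11 K91A of 1.70 ± 0.59 (SE, adjusted p = 0.107). The Sox11 call was lost without control replicate 1 (2.28), control replicate 2 (2.05), Sox11 replicate 2 (1.69) or either Sox11 K91A replicate (2.17). The other 5 ligands tested, Wnt2b, Wnt4, Wnt5a, Wnt9a and Wnt11, did not pass for either vector, with log2 fold changes from -4.56 to 0.51 with Sox11 and from -2.28 to 0.90 with Sox11 K91A. The lowest of these, for Wnt4, rested on counts of 22 and 122 in control and 11 and 0 with Sox11, and the 2 control libraries were far apart. Wnt4 passed with DESeq2 and when control replicate 1 was left out.

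Fzd9 was the only Frizzled among the 8 tested that fell by limma-voom, and its mean control level of 10.3 TPM was close to that of Fzd1 (12.3 TPM) and Fzd3 (10.3 TPM). Fzd9, a receptor known from the hippocampus and bone (chr5:135248938-135251230, minus strand), was at 10.8 and 12 CPM in control, 2.88 and 0.664 CPM with Sox11, and 1.30 and 2.37 CPM with Sox11 K91A. All 4 libraries with a vector for Sox11 were below both control libraries. The log2 fold change was -3.10 ± 0.56 (SE, limma-voom adjusted p = 0.017) with Sox11 and -2.71 ± 0.53 (SE, adjusted p = 0.029) with Sox11 K91A, to 0.116 and 0.153 of the control level. The Sox11 value was -4.08 without Sox11 replicate 1 and, no longer called, -1.99 without Sox11 replicate 2. The Sox11 K91A call was lost without control replicate 2 (-2.63), Sox11 K91A replicate 1 (-2.27) or Sox11 K91A replicate 2 (-3.12), and with edgeR.

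Fzd3, a receptor of axon guidance and planar cell polarity (chr14:65192449-65262463, minus strand), was at 34.7 and 7.32 CPM in control, 59.4 and 82.0 CPM with Sox11, and 66.3 and 44.4 CPM with Sox11 K91A. The groups did not overlap, but the ratio between the control libraries was larger than that between either Sox11 library and control replicate 1. The log2 fold change was 2.24 ± 0.60 (SE, limma-voom adjusted p = 0.042) with Sox11 and 1.88 ± 0.60 (SE, adjusted p = 0.089) with Sox11 K91A. The size depended on control replicate 2: without it the log2 fold change was 1.01 with Sox11, no longer called, and 0.64 with Sox11 K91A, and without control replicate 1 it was 3.26 and 2.89, both called. The Sox11 call was also lost without Sox11 replicate 1 (2.46), Sox11 replicate 2 (1.99) or either Sox11 K91A replicate (2.24), and with edgeR and DESeq2.

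Control replicate 2 departed from control replicate 1 with transcript length. Over all genes tested, its median log2 difference from replicate 1 went from 0.29 in the shortest to -0.33 in the longest of 5 equal bins of transcript length, while the replicates of the other groups differed by at most 0.07 in any bin. The median log2 fold change against control went from -0.22 to 0.21 with Sox11 and from -0.14 to 0.17 with Sox11 K91A over the same bins. Of the 41 Wnt genes tested, 27 were in the 2 bins with the longest transcripts. Over all genes of these 2 bins the median log2 fold change was 0.106 and 0.209 with Sox11, beside 0.10 for the 41 Wnt genes. With Sox11 K91A it was 0.092 and 0.167, beside 0.12. Wnt3, Fzd3, Lrp5, Lrp6 and Apc were among the 27. The part of transcript length in their fold changes, and in the share of Wnt genes that rose, was not tested.

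The other 6 Frizzleds tested, Fzd1, Fzd4, Fzd5, Fzd6, Fzd7 and Fzd8, did not pass by limma-voom, with log2 fold changes from -1.43 to 1.90 with Sox11 and from -0.98 to 1.10 with Sox11 K91A. Fzd5, known in the retina for its role in eye development, was at 14.3 and 7.34 CPM in control, 5.28 and 2.62 CPM with Sox11 and 5.40 and 4.63 CPM with Sox11 K91A, below control in all 4 libraries (log2 fold change -1.43, limma-voom adjusted p = 0.066, with Sox11). With Sox11 it passed in 5 of 18 alternative settings. They included DESeq2, limma-voom with a replicate block (a term for the replicate number) and limma-voom with a block for the 2 low-Xist libraries (adjusted p = 0.0084). The rest leave control with a single library. They were the other 4, high-Xist libraries alone (log2 fold change -1.43), where Sox11 also has a single library, and the fit without control replicate 2 (-1.97). Over the alternatives its log2 fold change ran from -1.97 to -0.91. With Sox11 K91A it passed with the low-Xist block (limma-voom adjusted p = 0.013). Its log2 fold change was -1.51 with the 4 high-Xist libraries, where control has a single library. Fzd1 was at 29.4 and 22.0, 31.6 and 21.6, and 30.3 and 28.3 CPM in the 3 groups, which overlapped.

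**Figure D3:**
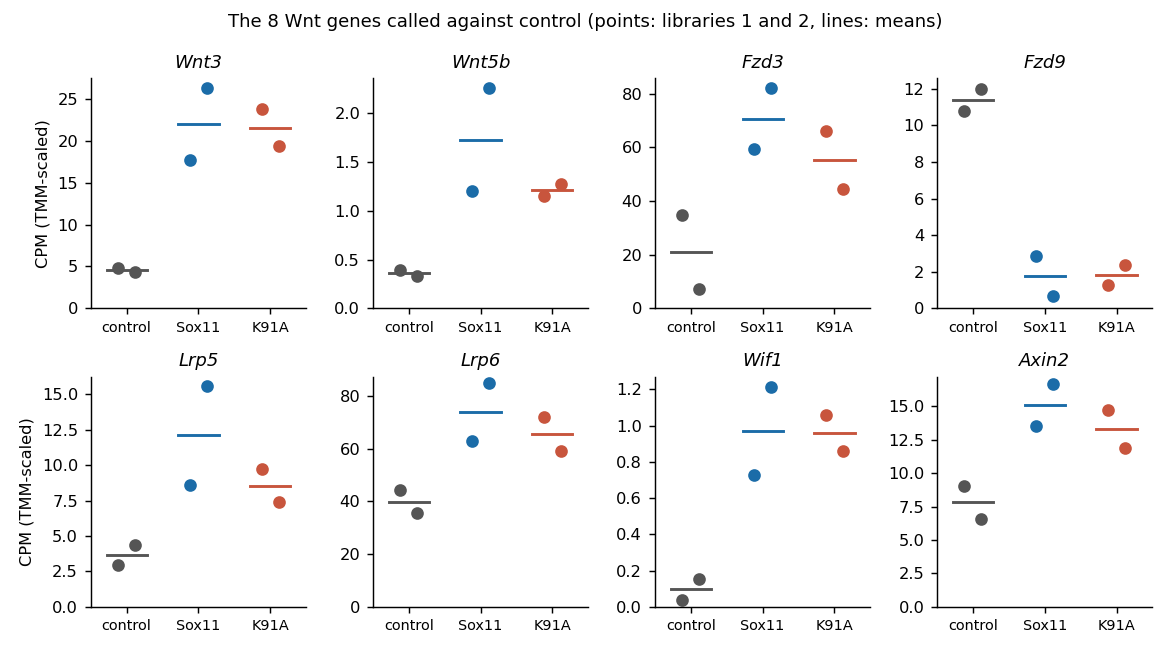
CPM (TMM-scaled) of the 8 Wnt genes called against control in at least 1 comparison. Points are the 2 libraries of each group, lines are their means, and each panel has its own linear axis from 0. Both control points were below the other 4 points for 7 genes and above them for Fzd9, and the control points of Fzd3 lay far apart at 34.7 and 7.32 CPM.

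Both Lrp coreceptors rose with Sox11. Lrp6 (chr6:134446476-134566965, minus strand) was at 44.4 and 35.5 CPM in control, 62.9 and 84.8 CPM with Sox11, and 71.9 and 59.1 CPM with Sox11 K91A. Lrp5 (chr19:3584828-3686564, minus strand) was at 2.97 and 4.36, 8.63 and 15.6, and 9.71 and 7.41 CPM in the same order. For both genes every library with either vector lay above control. Lrp6 had a log2 fold change of 0.89 ± 0.21 (SE, limma-voom adjusted p = 0.030) with Sox11 and 0.72 ± 0.21 (SE, adjusted p = 0.068) with Sox11 K91A. That of Lrp5 was 1.68 ± 0.40 (SE, limma-voom adjusted p = 0.031) and 1.21 ± 0.41 (SE, adjusted p = 0.102). On the TPM scale Lrp6 was the higher of the pair in every library, 10.7 against 1.53 on average in control and 19.9 against 5.52 with Sox11. The Sox11 call of Lrp6 was lost without control replicate 2 (0.72), Sox11 replicate 2 (0.67) or either Sox11 K91A replicate (0.89), and that of Lrp5 without control replicate 1 (1.44), control replicate 2 (1.99), Sox11 replicate 2 (1.23) or either Sox11 K91A replicate (1.68). Ryk, a Wnt-binding receptor related to kinases and the highest gene of this role, was at 23.7 and 34.1, 33.5 and 39.9, and 33.2 and 31.8 CPM. Its control and Sox11 libraries overlapped (log2 fold change 0.35 ± 0.20 SE, limma-voom adjusted p = 0.255), and Ror2 did not pass either.

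Of the R-spondins and their receptors 4 were tested, Rspo2, Rspo3, Lgr4 and Lgr5. None of them passed by limma-voom with all 6 libraries and no covariate in either comparison. In each, 2 had an unadjusted p under 0.05. Of all 15747 genes, 5985 had such a p with Sox11 and 4817 with Sox11 K91A. By edgeR's quasi-likelihood test 1 passed with Sox11 (Rspo3) and by DESeq2 2 did (Rspo2 and Rspo3), all lower, and neither tool called any with Sox11 K91A. Rspo2, which strengthens Wnt signals at the receptor, was at 18.4 and 16.0 CPM in control, 8.30 and 2.11 CPM with Sox11, and 3.97 and 10.7 CPM with Sox11 K91A. Rspo3, of the same function, was at 4.87 and 1.84, 0.4 and 0.0905, and 0.217 and 1.10 CPM. For both genes all 4 libraries with a Sox11 vector were below both control libraries, with a wide spread within each group. The limma-voom log2 fold changes were -2.08 ± 0.61 (SE, adjusted p = 0.054) and -1.41 ± 0.55 (SE, adjusted p = 0.138) for Rspo2 and -3.82 ± 1.14 (SE, adjusted p = 0.057) and -2.53 ± 0.91 (SE, adjusted p = 0.117) for Rspo3. The size depended on single libraries. With Sox11, Rspo2 was at -3.01 without Sox11 replicate 1, where it passed, and -1.04 without Sox11 replicate 2, and Rspo3 at -4.77 and -2.78. With Sox11 K91A the values without 1 of its own replicates ran from -2.10 to -0.67 for Rspo2 and from -3.63 to -1.37 for Rspo3. Rspo3 also passed by limma-voom with Sox11 with library size only, with the replicate block, with the low-Xist block (adjusted p = 0.017, and 0.025 with Sox11 K91A) and without control replicate 2 (-4.60), and Rspo2 with the low-Xist block (adjusted p = 0.043) and with only the 2 groups compared. With the 4 high-Xist libraries, which hold a single control library, the log2 fold change of Rspo3 was -3.30 with Sox11 K91A. Their receptors showed smaller differences. Lgr4 was at 36.4 and 32.3, 32.5 and 40.9, and 36.9 and 31.9 CPM, with log2 fold changes of 0.10 and 0.01, and Lgr5 had log2 fold changes of -0.19 and 0.04, with overlapping groups. The direction of Lgr4 and Lgr5 turned when single libraries were left out.

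Among the 7 secreted antagonists tested, Wif1 rose with both vectors. Wif1 (chr10:121033960-121100650, plus strand) binds Wnt proteins outside the cell. Its expected counts were 1 and 6 in control, 20 and 40 with Sox11, and 34 and 25 with Sox11 K91A, or 0.0358 and 0.156, 0.728 and 1.21, and 1.06 and 0.857 CPM. It was low in every library and passed the filter through the groups in which it is high. The log2 fold change was 3.28 ± 0.82 (SE) with both vectors (limma-voom adjusted p = 0.035 with Sox11 and 0.049 with Sox11 K91A). Both calls were lost without control replicate 1 (2.53 for both vectors) or control replicate 2 (4.17 for both). The Sox11 call was also lost without Sox11 replicate 2 (2.90) or either Sox11 K91A replicate (3.28), and the Sox11 K91A call without its replicate 1 (3.13) or its replicate 2 (3.42).

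Dkk3, the antagonist with the highest level, was at 498 and 371 CPM in control, 326 and 192 CPM with Sox11, and 266 and 346 CPM with Sox11 K91A. All 4 libraries with a vector were below control in CPM. In TPM the control values were 312 and 213 and the Sox11 K91A values 166 and 214, so on that scale these groups overlapped. The difference did not pass by limma-voom (log2 fold change -0.78 ± 0.29 SE, limma-voom adjusted p = 0.094, and -0.51 ± 0.29 SE, adjusted p = 0.283). With Sox11 it passed with DESeq2, with the low-Xist block (adjusted p = 0.022) and without Sox11 replicate 1 (-1.17), and its value was -0.40 without Sox11 replicate 2. With Sox11 K91A it passed with the low-Xist block (adjusted p = 0.038), and its log2 fold change was -0.72 with the 4 high-Xist libraries, which hold a single control library. The other 5 antagonists tested, Dkk2, Frzb, Sfrp1, Sfrp2 and Sfrp4, had log2 fold changes from -0.69 to 0.55 with Sox11 and from -0.47 to 0.71 with Sox11 K91A, and none passed.

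Wnt3, Wif1 and Fzd9 are the 3 genes called with both vectors, and the DNA just before their start sites is shown because Sox11 and the TCF/LEF factors both bind DNA through an HMG box. The sequences are parts of RefSeq promoters (GRCm38.p6), 5′ to 3′ on the strand of the gene, cut at the base before the first GENCODE exon. Of the 250 bases before each RefSeq start this leaves out the last 25 for Wnt3, 44 for Wif1 and 183 for Fzd9. Capitals mark the GC box GGGCGG on either strand. Wnt3 and Wif1 each have 2, and the 1 of Fzd9 lies in the bases left out.
Wnt3, chr11:103773925-103774149, plus strand: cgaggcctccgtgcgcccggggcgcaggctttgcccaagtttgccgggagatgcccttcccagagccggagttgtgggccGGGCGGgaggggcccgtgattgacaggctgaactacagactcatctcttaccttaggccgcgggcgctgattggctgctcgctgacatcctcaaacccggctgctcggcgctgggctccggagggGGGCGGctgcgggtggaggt
Wif1, chr10:121033754-121033959, plus strand: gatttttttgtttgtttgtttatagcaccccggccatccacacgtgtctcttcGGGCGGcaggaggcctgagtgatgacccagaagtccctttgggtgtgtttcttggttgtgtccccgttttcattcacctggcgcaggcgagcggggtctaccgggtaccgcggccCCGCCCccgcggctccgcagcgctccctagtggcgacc
Fzd9, chr5:135251231-135251297, minus strand: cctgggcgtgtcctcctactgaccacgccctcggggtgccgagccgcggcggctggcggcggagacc
The 6-letter core ACAAAG, its close relative ACAATG, the core TCAAAG known for TCF/LEF factors, and its close relative TCAATG were searched on both strands in the 250 bases before the RefSeq start. None of the 4 was found in these 3 promoters. Of all 32851 RefSeq promoters, 39.4% held at least 1 of them, as did 33.3% of the 51 promoters of the 42 Wnt genes with an entry. Among the called genes with an entry, which also include Axin2 and Wnt5b, a match was found only in a single promoter of Wnt5b, TCAAAG on the opposite strand. The GC box was found in 32.7% of all promoters and in 76.5% of the Wnt gene promoters. A match is a description of letters and not a binding site.

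Of the 7 cytoplasmic transducers only Axin2 passed by limma-voom with all 6 libraries, and only with Sox11, while DESeq2 also called it with Sox11 K91A. Axin2 (chr11:108920349-108950783, plus strand), which promotes the breakdown of beta-catenin and is induced by it, was at 9.02 and 6.59 CPM in control, 13.5 and 16.7 CPM with Sox11, and 14.7 and 11.9 CPM with Sox11 K91A. All 4 libraries with a vector were above control in CPM. In TPM the control values were 8.89 and 3.24 and the Sox11 values 8.65 and 13.0, so on that scale the groups overlapped. The log2 fold change was 0.99 ± 0.25 (SE, limma-voom adjusted p = 0.036) with Sox11 and 0.81 ± 0.25 (SE, adjusted p = 0.084) with Sox11 K91A. The Sox11 call was lost without control replicate 2 (0.74), Sox11 replicate 2 (0.83) or either Sox11 K91A replicate (0.99). Axin2 shares 3.8% of its exon bases with Gm11670 on the other strand, and whether reads were counted by strand is not stated.

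Ctnnb1, beta-catenin, was at 371 and 317 CPM in control, 439 and 449 CPM with Sox11, and 457 and 431 CPM with Sox11 K91A. It was higher in all 4 libraries with a vector, by a log2 fold change of 0.37 ± 0.14 (SE) in both comparisons, which did not pass (limma-voom adjusted p = 0.109 with Sox11 and 0.138 with Sox11 K91A) unless control replicate 1 was left out (0.49 in both). The other 5 transducers, Apc, Axin1, Dvl1, Dvl2 and Dvl3, had log2 fold changes from -0.30 to 0.69 with Sox11 and from -0.27 to 0.65 with Sox11 K91A. For Apc and Dvl3 control replicate 2 (272 and 52.4 CPM) was far below control replicate 1 (565 and 158 CPM), and the Sox11 and Sox11 K91A libraries lay near replicate 1, at 565 to 676 and 132 to 157 CPM.

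The TCF/LEF factors Lef1, Tcf7, Tcf7l1 and Tcf7l2, through which beta-catenin acts on DNA, did not pass in either comparison by limma-voom, edgeR or DESeq2. By limma-voom 1 of the 4 had an unadjusted p under 0.05 with Sox11 and 1 with Sox11 K91A, beside 5985 and 4817 of all 15747 genes. Lef1 had 1 and 8 expected counts in control, 14 and 17 with Sox11 and 14 and 6 with Sox11 K91A. It passed the filter through libraries with a Sox11 vector, in which it is higher. Its log2 fold change with Sox11 was 2.19 ± 0.87 (SE, limma-voom adjusted p = 0.116). Tcf7 was at 0.501 and 0.519 CPM in control, 0.364 and 0.241 CPM with Sox11, and 0.124 and 0.103 CPM with Sox11 K91A, below control in all 4 libraries (log2 fold change -0.77 and -2.02, limma-voom adjusted p = 0.372 and 0.100). Tcf7l2, the highest of the 4 on average in TPM, was at 0.787 and 0.701, 0.182 and 0.362, and 0.341 and 0.583 CPM (log2 fold change -1.43 ± 0.62 SE, adjusted p = 0.142, with Sox11). Of the members known as feedback targets of beta-catenin, which are Axin2, Lef1, Tcf7, Notum and Lgr5, Axin2 rose with Sox11, Lef1, Tcf7 and Lgr5 did not pass, and Notum, an enzyme that inactivates Wnts, was too low to test.

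Sox11 K91A and Sox11 were compared in the same fit to ask whether the SUMO site bears on these genes. None of the 41 Wnt genes passed, none had an unadjusted p under 0.05, and edgeR and DESeq2 called none of them. Over all 15747 genes tested, limma-voom called 0% and 108 genes had an unadjusted p under 0.05. The difference for Wnt3 was -0.02 on the log2 scale (95% interval -0.57 to 0.52), and for Lrp6 it was -0.16 (-0.65 to 0.32) and for Axin2 -0.18 (-0.73 to 0.36). Lrp5 differed by -0.47 (-1.28 to 0.33), Wnt5b by -0.48 (-1.54 to 0.58) and Fzd3 by -0.36 (-1.61 to 0.88). For Fzd9 the difference was 0.40 (-1.24 to 2.03) and for Wif1 0.00 (-1.22 to 1.22). These intervals leave room for differences of more than 2-fold in either direction for Fzd9 and Wif1, and a p above the threshold does not show that the vectors act alike. Wnt5b, Fzd3, Lrp5, Lrp6 and Axin2 passed against control with Sox11 and not with Sox11 K91A by limma-voom, which does not show a difference between the vectors. DESeq2 called Lrp5, Lrp6 and Axin2 with Sox11 K91A too, and neither edgeR nor DESeq2 called Fzd3 with Sox11.

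A wider list of 97 other Wnt pathway genes was read from the same fit, and 88 of them passed the filter. The list was written from known roles, but with earlier results of these data known. Its shares beside those of all genes are therefore a description, and no conclusion is drawn from them. These shares were not matched for transcript length, with which control replicate 2 departed from control replicate 1. The part of transcript length in them was not tested. With Sox11, 24 rose (27.3%) and 7 fell (7.95%), beside 9.96% and 10.2% of all genes, and with Sox11 K91A, 10 rose (11.4%) and 5 fell (5.68%), beside 5.81% and 4.81%. The median log2 fold change of the 88 was 0.30 and 0.20. With Sox11 the count that rose was 10 without control replicate 2, 13 without either Sox11 K91A replicate and 0 without Sox11 replicate 2. The count that fell was 4 without control replicate 2 and 0 without Sox11 replicate 2. With Sox11 K91A the count that rose was 17 without control replicate 1, 1 without Sox11 K91A replicate 2, and 0 without control replicate 2 or Sox11 K91A replicate 1. The count that fell was 2 without control replicate 1 and 0 without control replicate 2 or either Sox11 K91A replicate.

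Of the 22 surface regulators tested, 3 rose (13.6%) and 3 fell (13.6%) with Sox11 by limma-voom, beside 9.96% and 10.2% of all genes. Draxin, a secreted axon guidance protein that also inhibits Wnt signaling, was at 19.0 and 25.2 CPM in control, 142 and 228 CPM with Sox11 and 198 and 135 CPM with Sox11 K91A (log2 fold change 3.02 and 2.88, limma-voom adjusted p = 0.0091 and 0.012). Ndp, the Fzd4 ligand norrin, rose with Sox11 (2.59 ± 0.55 SE, adjusted p = 0.024), as did Reck (0.85 ± 0.23 SE, adjusted p = 0.040), a membrane protein needed for Wnt7 signals. With Sox11 K91A Ndp did not pass by limma-voom (2.16, adjusted p = 0.055), but edgeR and DESeq2 called it higher. Sostdc1, a secreted antagonist, fell with Sox11 (-3.96 ± 1.07 SE, adjusted p = 0.044), and was not called by edgeR. Cthrc1, a secreted protein that favours planar cell polarity signaling, and Trabd2b, a protease that inactivates Wnts, fell with both vectors by limma-voom and DESeq2 (Cthrc1 -2.49 and -1.84, Trabd2b -2.94 and -3.09), but edgeR called neither with Sox11 K91A. Trabd2b had 37 and 55 expected counts in control, 5 and 5 with Sox11 and 2 and 10 with Sox11 K91A, and passed the filter through the group in which it is high. Porcn and Wls, needed for Wnt secretion, did not pass in either comparison by limma-voom, edgeR or DESeq2, and neither had an unadjusted p under 0.05.

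The destruction complex list also holds genes outside the complex itself, such as Csnk1g1, Siah1a, Tnks and Usp34. In this list 6 of 18 genes (33.3%) rose with Sox11 by limma-voom, against 4 by edgeR and 8 by DESeq2. With Sox11 K91A 2 (11.1%) rose, against 0 and 5. Over all genes the limma-voom shares were 9.96% and 5.81%. None fell by limma-voom or edgeR, while DESeq2 called Csnk1g2 lower with Sox11. Gsk3a, Gsk3b, Csnk1a1, Btrc and Fbxw11 were not called in either comparison by limma-voom, while DESeq2 called Gsk3b higher with Sox11. By limma-voom 12 of the 18 had an unadjusted p under 0.05 with Sox11 and 7 with Sox11 K91A. Of all 15747 genes, 5985 and 4817 had such a p. Amer1, which binds Apc and beta-catenin, rose with both by limma-voom (log2 fold change 1.19 and 1.05), as did Apc2, the neuronal relative of Apc (1.00 and 1.08), but edgeR called neither with Sox11 K91A nor Apc2 with Sox11. Csnk1g1, a casein kinase, rose with Sox11 (0.64). Of 16 nuclear cofactors tested, 6 (37.5%) rose with Sox11 and 4 (25%) with Sox11 K91A by limma-voom. Only 1 (6.25%) fell, beside 10.2% and 4.81% of all genes. It was the corepressor Tle2, which fell with both by limma-voom and DESeq2 (-2.59 and -2.23), though not with Sox11 K91A by edgeR. Those that rose with both included the beta-catenin partner Bcl9 (1.2 and 1.05) and the corepressors Tle4 (1.10 and 0.84) and Ctbp2 (1.06 and 0.97), so coactivators and corepressors were both among them.

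Of 12 other beta-catenin target genes tested, 2 rose (16.7%) and 1 fell (8.33%) with Sox11, beside 9.96% and 10.2% of all genes by limma-voom. None passed with Sox11 K91A by limma-voom or edgeR, while DESeq2 called Tnfrsf19 and Zcchc12. Tnfrsf19 (log2 fold change 1.54 ± 0.42 SE, limma-voom adjusted p = 0.044) and Zcchc12 (1.39 ± 0.31 SE, adjusted p = 0.028) rose with Sox11. Myc, a growth gene, was at 7.23 and 12.4 CPM in control and 4.33 and 2.29 CPM with Sox11, and fell (log2 fold change -1.65 ± 0.44 SE, adjusted p = 0.041). With Sox11 K91A, 4 of the 12 had an unadjusted p under 0.05 by limma-voom, beside 4817 of all 15747 genes. In the planar cell polarity list, 7 of 21 genes rose (33.3%) and 2 fell (9.52%) with Sox11 by limma-voom, beside 9.96% and 10.2% of all genes. With Sox11 K91A, 3 rose (14.3%) and 2 fell (9.52%), beside 5.81% and 4.81%. Ankrd6, the relative of fly diego, rose with Sox11 (2.24 ± 0.47 SE, adjusted p = 0.023). With Sox11 K91A it did not pass by limma-voom (1.85, adjusted p = 0.053), but edgeR and DESeq2 called it higher. The core polarity protein Vangl2 rose with both (1.2 and 0.98), and so did the Dishevelled-binding Dact1 (1.68 and 1.46) and the ubiquitin ligase Smurf2 (0.80 and 0.62), of which edgeR did not call Smurf2 with Sox11 K91A. The related Dact2 (-1.63 and -1.17) and Dact3 (-0.99 and -0.85) fell with both vectors by limma-voom and DESeq2, and with Sox11 alone by edgeR, so members of the Dact family moved in opposite directions.

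The calls did not pass in equally many settings. Some alternative settings, those that leave out a library and that with the 4 high-Xist libraries, leave a group with a single library. As given above, some of these called none of all genes tested, so they count against every gene alike. Others, such as counts without rounding, hardly differ from the reported fit. The tallies below therefore describe the settings as well as the genes. Over 18 alternative settings Wnt3 passed in 17 with Sox11 and in 16 with Sox11 K91A, with log2 fold changes from 1.87 to 2.53 and from 2.08 to 2.46. Fzd9 passed in 17 and 14 (-4.08 to -1.90 and -3.12 to -2.27). With Sox11, Lrp6 passed in 11, Wnt5b, Lrp5 and Axin2 in 10 each and Fzd3 in 8 of 18, and Wif1 in 9 of the 17 settings that tested it. All 8 genes kept their direction against control in every setting. For each of them both control libraries lay on the same side of all the others. Leaving out a library could therefore not turn the direction, and its constancy is no sign of firmness.

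**Figure D4:**
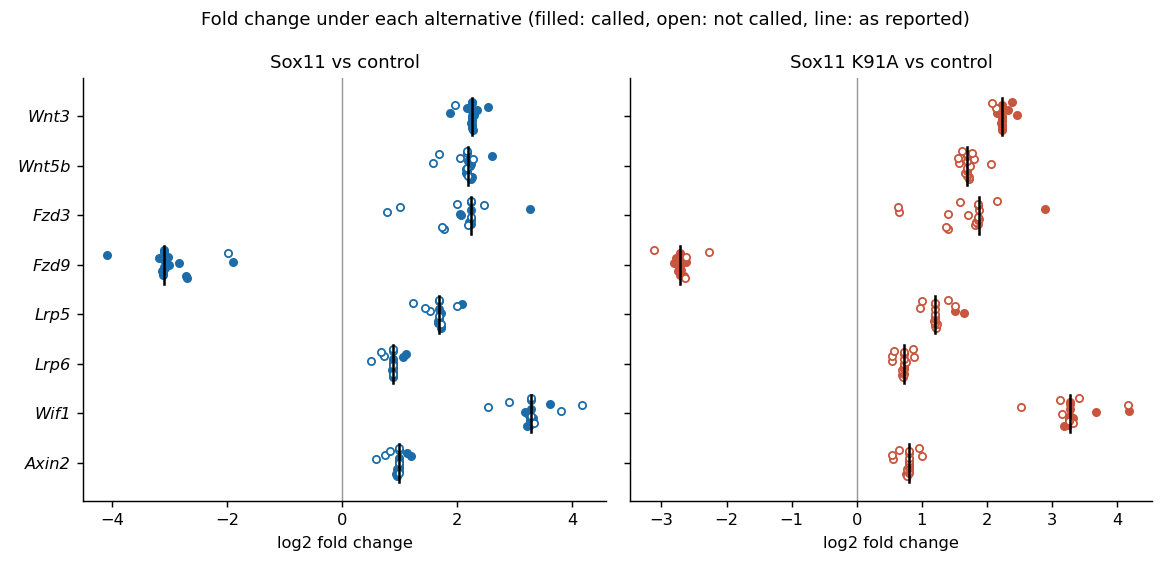
Log2 fold change of the 8 called Wnt genes under each alternative setting, for Sox11 (left) and Sox11 K91A (right) against control. Filled points passed the threshold, open points did not, and the line is the value reported. Wnt3 points lay between 1.87 and 2.53 and those of Fzd3 between 0.78 and 3.26 with Sox11. No point crossed 0, and leaving out a library could not make it do so, as no control library overlapped the others.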

How the data were processed

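RNA-seq of cultured RGCs was read from 6 deposited tables, 1 per library. The authors aligned reads to mm10 with STAR and counted them with RSEM. Versions, annotation and strand setting are not given in the sources used here. The deposited expected counts were not normalized, and the deposited TPM values were scaled by the authors for transcript length and depth. No column of another sample was present.

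Expected counts were rounded and filtered with filterByExpr of edgeR (version 4.0.16, 3 groups), which kept 15747 genes, scaled by TMM and fitted with limma-voom (limma 3.58.1 in R 4.3.3). All 6 libraries entered 1 fit with no covariate. Calls need a Benjamini-Hochberg adjusted p under 0.05 over all genes tested and a fold change above 1.2, two-sided. Where no tool is named, an adjusted p is that of limma-voom. CPM used TMM-scaled library sizes. The fit was tested on simulated data. Symbols came from a separate list of gene names, which named 98.0% of genes, and coordinates from GENCODE M21 (GRCm38). Plots used Python 3.11.15, pandas 2.3.3 and matplotlib 3.10.9.

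Alternatives were DESeq2 (version 1.42.0) and edgeR's quasi-likelihood test in place of limma-voom, weights for sample quality, other scalings and filters, the 2 groups compared alone, blocks for the replicate number and for the 2 low-Xist libraries, the 4 other libraries alone, counts without rounding, and leaving out each library. Those for the other pathway genes were chosen after seeing the data. Genes and lists were chosen with earlier results of these data known. Full values are given for genes called, the gene with the highest mean TPM of each role, feedback targets and Ctnnb1, and other members by range. Other pathway genes are named up to 3 per list and comparison by size of change. Wnt2b, Wnt4, Fzd1, Fzd5, Rspo2, Rspo3, Apc, Dvl1, Dvl3, Ndp, Reck, Smurf2, Dact3 and the RGC markers Nefl and Thy1 were given values outside these rules, after their values were seen.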

Additional observations from a re-analysis of the deposited data

How the results depend on the processing

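The count of Wnt genes that rose with Sox11, 7, was 1 with sample quality weights, with only the 2 groups compared, and with the 4 high-Xist libraries alone, and 0 to 7 when 1 library was left out. The count that fell, 1, was 2 with edgeR, with library size only, with only the 2 groups compared and with the 4 high-Xist libraries, 3 with the replicate block, 5 with a block for the low-Xist libraries, 6 with DESeq2, and 0 to 3 when 1 library was left out. With Sox11 K91A the count that rose, 2, was 1 with sample quality weights, DESeq2 size factors, at least 10 counts in every library or the replicate block, 5 with DESeq2, and 0 to 6 when 1 library was left out. The count that fell, 1, was 0 with edgeR, 4 with the low-Xist block, 5 with the 4 high-Xist libraries, and 0 to 1 when 1 library was left out. Between Sox11 K91A and Sox11 it was 0 in every setting. The counts over all 15747 genes moved with the setting too. With Sox11, 1568 rose and 1603 fell in the reported fit. These were 527 and 452 with sample quality weights, and 810 and 827 with only the 2 groups compared. They were 2112 and 2220 with DESeq2, and 2162 and 2400 with the low-Xist block. With Sox11 K91A, 915 rose and 757 fell, against 1551 and 1593 with DESeq2 and 1326 and 1568 with the low-Xist block.

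Of the other pathway genes, 24 rose with Sox11, and the count was 7 with sample quality weights, 13 with only the 2 groups compared, 8 with the 4 high-Xist libraries and 0 to 27 when 1 library was left out. The count that fell, 7, was 3 with sample quality weights, 4 with the 4 high-Xist libraries and 0 to 7 when 1 was left out. With Sox11 K91A the count that rose, 10, was 21 with DESeq2, 19 with the 4 high-Xist libraries and 0 to 17 when 1 was left out, and the count that fell, 5, was 0 with edgeR, 2 with all genes of at least 1 count, 9 with the 4 high-Xist libraries and 0 to 5 when 1 was left out. These changes stand beside those over all genes given above and are not read as a trait of the pathway genes. The cause of these changes was not tested.

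The 8 Wnt genes called against control kept their sign against control in all alternatives run. Leaving out a library could not turn it, as both control libraries lay on the same side of all the others. Of the other members, Wnt2b ran from -0.89 to 1.62 with Sox11 and from -0.50 to 2.02 with Sox11 K91A over the alternatives, on the log2 scale, Fzd7 from -0.98 to 0.57 and from -1.22 to 0.33, Wnt11 from -0.83 to 0.85 and from -0.35 to 0.70, Dvl3 from -0.13 to 1.47 and from -0.19 to 1.41, Frzb from -0.27 to 1.27 with Sox11, and Dkk2 from -1.0 to 0.08 and Ror2 from -0.25 to 0.79 with Sox11 K91A. With the 4 high-Xist libraries Lgr4 was at -0.16 with Sox11 and -0.09 with Sox11 K91A on the log2 scale and Lgr5 at -0.06 with Sox11 K91A, and the difference between the vectors was -0.73 for Fzd9, 0.05 for Lrp6 and 0.28 for Wnt3, which was 0.17 with the low-Xist block. Lgr4 with Sox11 K91A was at -0.01 with DESeq2 and -0.02 with library size only. When 1 library was left out Lgr4 lay between -0.07 and 0.26 with Sox11 and between -0.10 and 0.10 with Sox11 K91A, Lgr5 between -0.44 and 0.03 and between -0.07 and 0.12, and Ryk with Sox11 K91A between -0.07 and 0.45. The difference between the vectors then lay between -0.72 and 1.37 for Fzd9, -0.38 and 0.05 for Lrp6, and -0.29 and 0.28 for Wnt3.

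Same-numbered replicates did not deviate together in all pairs of groups. The correlations of their deviations from the group means were 0.229 for control and Sox11, -0.0281 for control and Sox11 K91A and -0.234 for Sox11 and Sox11 K91A, so the numbers are not read as pairs, although replicate 2 of control and of Sox11 lay together on the second principal component. With the replicate block 6 Wnt genes rose with Sox11, and the call of Axin2 was lost.

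With 2 libraries per group each call rests on few values, and a fit that leaves out a library leaves a group with 1 library, which is then assumed to vary like the others. Wif1, Wnt5b and the TCF/LEF factors had few counts, and 21 of the 62 genes were too low to test.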
